A study of Mus musculus with 6 samples.

Results

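Transcripts of the MHC class II genes *H2-Aa*, *H2-Ab1*, *H2-Eb1*, *H2-DMa* and *Cd74*, and of their transcriptional activator *Ciita*, were measured in whole adult mouse brain. These 6 genes were taken by symbol from a count table of 37310 genes. Brain was collected from 12-week-old male C57BL/6 mice, as the sample labels and the study's methods give it, whereas the series' design line speaks of foetal brain. Homozygous *Adar1* E861A mice (*Adar1* E861A/E861A *Ifih1*-/-, n = 3) carried a point mutation that abolishes the RNA editing activity of ADAR1, and they were compared with *Adar1*+/+ *Ifih1*-/- mice (n = 3). Both genotypes therefore lacked *Ifih1*, which encodes the RNA sensor MDA5, and no *Ifih1*-sufficient brain was analysed here. The mutation is present in every cell of the animal, and whole brain includes neurons, glia, vessels and whatever blood, meninges or neighbouring tissue came with the dissection. The comparison asked whether loss of ADAR1 editing alters these transcripts in adult brain when MDA5 is absent.

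MHC class II molecules present peptides from endosomes to CD4 T cells. An alpha chain and a beta chain form the peptide-binding dimer, the invariant chain encoded by *Cd74* holds the new dimer and guides it to the endosome, and the H2-DM heterodimer exchanges the invariant chain remnant for an antigenic peptide. In the brain, class II expression at rest is known from border-associated macrophages and dendritic cells of the meninges, choroid plexus and perivascular space, and it appears on microglia on activation, classically by interferon gamma. CIITA does not bind DNA itself but is recruited to the X and Y boxes of class II promoters by the RFX, CREB and NF-Y complexes, and its own transcription is induced through JAK kinases and IRF1.

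The promoter sequences are shown first, because the X and Y boxes are where the product of *Ciita*, measured here, acts on the other genes. RefSeq promoter windows (build GRCm38.p6, from 250 bases before to 50 bases after each annotated start) were matched to 3 of the 6 genes, *H2-Aa*, *H2-Eb1* and *H2-DMa*. *H2-Ab1*, *Cd74* and *Ciita* had no entry. The X box core was searched as GCAAC and the Y box core as ATTGG, each on both strands, and the arrangement sought was an X core followed by a Y core with 20 to 35 bases between them, a spacing chosen after these sequences had been seen. The arrangement was found in *H2-Aa* and *H2-Eb1*, and in 3 of 33 matched genes of the class II pathway described below, *H2-Oa*, *H2-Ob* and *H2-Eb2*. It was present in 0.794% of 32851 RefSeq windows, whereas the X core alone was in 35.2% and the Y core alone in 37.4%. Each sequence is given 5′ to 3′ on the strand of its gene, with both cores in capitals.
H2-Aa (minus strand, chr17:34287867-34287904): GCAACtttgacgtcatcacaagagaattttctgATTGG
H2-Eb1 (plus strand, chr17:34305776-34305812): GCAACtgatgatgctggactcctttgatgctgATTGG
H2-Oa (plus strand, chr17:34092303-34092340): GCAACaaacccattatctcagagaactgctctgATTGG
H2-Ob (plus strand, chr17:34238818-34238852): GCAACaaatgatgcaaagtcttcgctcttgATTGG
H2-Eb2 (plus strand, chr17:34325543-34325579): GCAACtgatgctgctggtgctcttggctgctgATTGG

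The X core began 81 bases before the annotated start in *H2-Aa* and 91 bases before it in *H2-Eb1*. The cores were 28 bases apart in *H2-Aa* and *H2-Oa*, 27 in *H2-Eb1* and *H2-Eb2*, and 25 in *H2-Ob*. Neither *H2-DMa* window held the arrangement, but neither lay at the start of *H2-DMa* in the GENCODE annotation. There *H2-DMb1* starts 17.9 kb after *H2-DMa*, whereas its window begins at 34152941 and those of *H2-DMa* at 34122582 and 34125268. The promoter at the GENCODE start of *H2-DMa* was therefore not searched. A match of these letters is a description of the sequence, and binding was not measured.

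Libraries held 26853488 to 38076753 counts each (*Adar1* E861A against *Adar1*+/+, exact two-sided permutation test, p = 0.3). Levels are given as CPM, counts relative to library depth, with TMM scaling factors of 0.986 to 1.02. Neuron, astrocyte and oligodendrocyte markers were abundant in every library, with summed levels of at least 3693, 795 and 3099 CPM. In the library labelled *Adar1* E861A replicate 1, pituitary hormone transcripts summed to 431 CPM, against 1.99 to 3.68 CPM in the other 5 libraries, so values without that library are given where they change a result. Genotypes were compared by edgeR's quasi-likelihood test with Benjamini-Hochberg adjustment over all genes tested, and a gene is referred to as called at an adjusted p under 0.05. The fit held 13649 genes, those at 2 CPM or more in all 3 libraries of one genotype or the other. It called 69 of them (0.506%), 0.41% higher and 0.0952% lower in *Adar1* E861A, and 158 (1.16%) with replicate number as a block.

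All 6 class II genes were detected in every library, at 17 to 231 counts, and none was called. *Cd74*, *H2-DMa* and *Ciita* passed the CPM filter. *H2-Aa*, *H2-Ab1* and *H2-Eb1* did not reach it and were read from the same test on the 19366 genes kept by edgeR's filterByExpr, where 110 genes (0.568%) were called, or 1.2% with the block. The fitted log2 fold change was above 0 for 6 of 6 genes, from 0.06 for *H2-Eb1* to 0.58 for *H2-Ab1*, with a median of 0.15 beside -0.001 over all genes tested. Adjusted p ranged from 0.593 to 0.966 by edgeR, and from 0.335 to 0.947 with replicate number as a block. As folds, the 95% intervals were 0.897 to 1.30 for *H2-DMa*, 0.866 to 1.39 for *Cd74* and 0.908 to 1.40 for *Ciita*. They were wider for the genes with fewer counts, at 0.753 to 1.44 for *H2-Eb1*, 0.967 to 1.78 for *H2-Aa* and 1.01 to 2.22 for *H2-Ab1*, the only interval of the 6 that did not hold a fold of 1. The *Adar1* E861A library was above the *Adar1*+/+ library of the same number in 3 of 3 pairs for *Cd74*, *H2-Ab1* and *Ciita*, and in 2 of 3 pairs for *H2-Aa*, *H2-Eb1* and *H2-DMa*. A higher level in every pair was seen in 19.3% of genes that passed the CPM filter and 19.4% of those kept by filterByExpr. At an unadjusted p under 0.05, edgeR, its likelihood ratio test and limma-voom each gave 1 of the 6 genes, and DESeq2 gave 0. Such a p by edgeR's quasi-likelihood test was seen in 1230 of 13649 genes with the CPM filter and 1575 of 19366 with filterByExpr. In RNA of whole brain, the number of class II-expressing cells and the RNA per cell cannot be told apart.

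**Figure D1:**
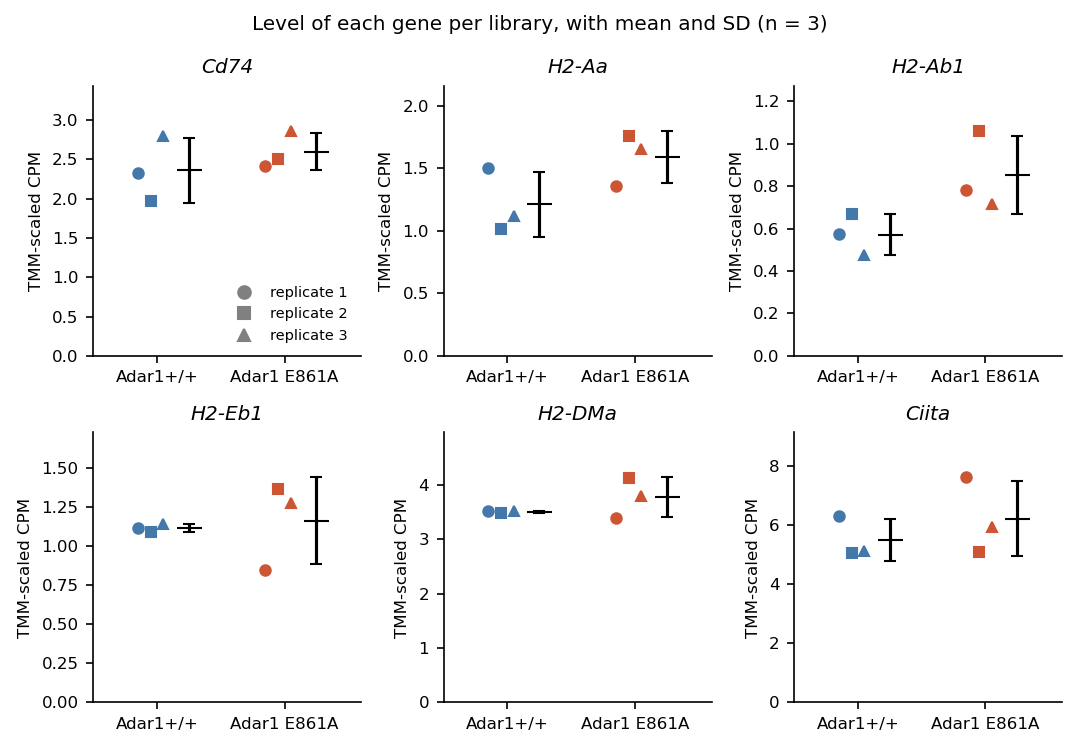
TMM-scaled CPM (vertical axis, linear from 0) of each of the 6 genes in the 3 *Adar1*+/+ (blue) and 3 *Adar1* E861A (red) libraries, with marker shape for the replicate number and a bar for the mean ± SD. The genotypes overlap in every panel but *H2-Ab1*, in which the *Adar1* E861A libraries sit between 0.715 and 1.06 CPM and the *Adar1*+/+ libraries between 0.475 and 0.666 CPM.

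*H2-Aa* (ENSMUSG00000036594; NCBIM37 chromosome 17, 34406276 to 34424772, minus strand) encodes the alpha chain of the A dimer, the class II molecule that C57BL/6 mice display. It was present at 1.36, 1.76 and 1.66 CPM in *Adar1* E861A replicates 1 to 3 and at 1.50, 1.01 and 1.12 CPM in *Adar1*+/+ replicates 1 to 3. The genotypes overlapped, since *Adar1*+/+ replicate 1 lay above *Adar1* E861A replicate 1. The means were 1.59 ± 0.21 and 1.21 ± 0.26 CPM (SD, n = 3). On the log2 scale the fold change was 0.39 ± 0.21 (SE) with a 95% interval of -0.05 to 0.83. The adjusted p was 0.665 by edgeR, and an exact two-sided permutation test gave p = 0.2, where 3 against 3 libraries cannot go below 0.1.

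*H2-Ab1* (ENSMUSG00000073421; chromosome 17, 34400154 to 34406363, plus strand), the beta chain of the same dimer, had the fewest counts of the 6, with 23, 38 and 19 in *Adar1* E861A and 21, 25 and 17 in *Adar1*+/+. These were levels of 0.781, 1.06 and 0.715 CPM against 0.573, 0.666 and 0.475 CPM. All 3 *Adar1* E861A libraries lay above all 3 *Adar1*+/+ libraries. Such separation was seen in 13.6% of the genes kept by filterByExpr. The log2 fold change was 0.58 ± 0.27 (SE), with a 95% interval of 0.02 to 1.15 and an adjusted p of 0.593 by edgeR (unadjusted 0.0433). The exact permutation p was 0.1, the smallest the design allows. *H2-Aa* and *H2-Ab1* are annotated on opposite strands with 88 bp in common, 17 bp of it exonic, and the strand on which reads were counted was not stated.

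*H2-Eb1* (ENSMUSG00000060586; chromosome 17, 34442828 to 34453144, plus strand) encodes the E beta chain. Its partner *H2-Ea-ps* is a pseudogene in C57BL/6 mice and had 0 counts in every library. *H2-Eb1* was at 0.849, 1.37 and 1.28 CPM in *Adar1* E861A and at 1.12, 1.09 and 1.15 CPM in *Adar1*+/+. The *Adar1*+/+ libraries lay close together, each with 41 counts, and within the *Adar1* E861A range. The log2 fold change was 0.06 ± 0.22 (SE), with a 95% interval of -0.41 to 0.53 and an adjusted p of 0.966 by edgeR. Its sign rested on 1 library, because without *Adar1* E861A replicate 2 it was -0.10.

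*H2-DMa* (ENSMUSG00000037649; chromosome 17, 34272127 to 34276046, plus strand) encodes the alpha chain of the peptide exchange factor. It was present at 3.40, 4.13 and 3.80 CPM in *Adar1* E861A replicates and at 3.52, 3.49 and 3.52 CPM in *Adar1*+/+ replicates. The *Adar1*+/+ values again lay within the *Adar1* E861A range, which was wider (SD 0.37 against 0.017 CPM, n = 3). The log2 fold change was 0.11 ± 0.12 (SE), with a 95% interval of -0.16 to 0.37 and an adjusted p of 0.830 by edgeR. *Adar1* E861A replicate 1 was the lowest library for both *H2-Eb1* and *H2-DMa*, and replicate 2 of that genotype was the highest for both. Over the 6 libraries these genes had a Pearson r of 0.856 (exact permutation p = 0.0333) and a Spearman rho of 0.943 (exact permutation p = 0.0167). Among the 15 pairs of the 6 genes this was the highest r, and it did not pass Benjamini-Hochberg adjustment over the pairs (exact permutation, 0.5 for r and 0.25 for rho). Without the 2 libraries farthest from the median r was 0.981.

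*Cd74* (ENSMUSG00000024610; chromosome 18, 60963502 to 60972300, plus strand) encodes the invariant chain. It lies outside the MHC, and 12 exonic bp are shared with an annotated miRNA gene. *Cd74* was at 2.41, 2.51 and 2.86 CPM in *Adar1* E861A and at 2.32, 1.97 and 2.79 CPM in *Adar1*+/+. Replicate 3 was the highest library of each genotype, and the genotypes overlapped. The log2 fold change was 0.13 ± 0.16 (SE), with a 95% interval of -0.21 to 0.47 and an adjusted p of 0.838 by edgeR.

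*Ciita* (ENSMUSG00000022504; chromosome 16, 10480237 to 10527657, plus strand) was counted more often than the other 5 genes in all 6 libraries, with 224, 183 and 158 counts in *Adar1* E861A and 231, 189 and 183 in *Adar1*+/+. Its levels were 7.61, 5.10 and 5.94 CPM against 6.30, 5.04 and 5.11 CPM. Replicate 1 was the highest library of each genotype. The log2 fold change was 0.17 ± 0.15 (SE), with a 95% interval of -0.14 to 0.49 and an adjusted p of 0.758 by edgeR. Without *Adar1* E861A replicate 1, the library with pituitary transcripts, the log2 fold change of *Ciita* was -0.00027, while those of the other 5 genes were 0.18 to 0.65. *Ciita* counts also varied more within genotypes than those of the other genes, at 5.88 times the variance that counting alone gives, against 0.57 to 1.62 times. A second gene, which the GENCODE annotation also names *Ciita*, lies inside an intron of the first on the same strand and shares no exonic base with it. It had 9 to 24 counts and, having no symbol in the count table, was not included.

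Levels between genes were compared per kilobase of annotated exon. In *Adar1*+/+ brain *H2-DMa* stood highest at 2.14 ± 0.010 CPM per kb, followed by *Cd74* at 1.67 ± 0.29, *H2-Eb1* at 0.941 ± 0.022, *Ciita* at 0.883 ± 0.11, *H2-Aa* at 0.609 ± 0.13 and *H2-Ab1* at 0.348 ± 0.058 CPM per kb (SD, n = 3). The order of the means in *Adar1* E861A brain differed only in the neighbours *H2-Eb1* and *Ciita*, at 0.979 ± 0.23 and 1.00 ± 0.21 CPM per kb. *H2-DMa* was above *Cd74* and *Cd74* above *H2-Eb1* in 6 of 6 libraries, and *H2-Aa* was above *H2-Ab1* in 6 of 6. *Ciita* was above *H2-Aa* in 5 of 6 libraries. *H2-Eb1* was above *Ciita* in only 4 of 6, so their levels could not be separated. None of the 6 genes was abundant. By mean CPM they fell between the 43.7 and 61.6 percentile of all genes with a count.

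The summed level of the 6 genes was 16.4, 15.9 and 16.2 CPM in *Adar1* E861A and 15.3, 13.3 and 14.2 CPM in *Adar1*+/+. The sums did not overlap, with TMM factors, with library totals alone or with median-ratio factors, and the ratios of means were 1.14, 1.13 and 1.13. These 3 scalings rest on the same counts. Single genes separated in 14.2% of those that passed the CPM filter and 13.6% of those kept by filterByExpr. No such share was computed for sums of genes. *Ciita* supplied 32.0% to 46.4% of the summed counts and *H2-DMa* 20.7% to 26.3%. The genes were chosen with results of these data known, so the sum is given as a description without a test.

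The wider class II pathway was examined by role. Among genes upstream of CIITA, *Jak1* and *Jak2*, the kinases of the interferon receptors, had log2 fold changes of 0.01 ± 0.04 and 0.04 ± 0.05 (SE), and *Ifngr2*, a chain of the interferon gamma receptor, had one of -0.01 ± 0.07. None of the 3 was called. A pair of genes was singled out once values were known. *Ifng*, which encodes interferon gamma, had 0 counts in every library. *Irf1* was at 3.60 ± 0.47 against 2.95 ± 0.26 CPM (SD, n = 3), and its log2 fold change was 0.28 ± 0.14 (SE, adjusted p = 0.573 by edgeR).

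The DNA-binding partners of CIITA were tested in full, 7 of 7, and none was called. Their median log2 fold change was 0.07. *Creb1* was at 105 ± 1.34 CPM in *Adar1* E861A and 96.5 ± 6.27 CPM in *Adar1*+/+ (SD, n = 3), and its log2 fold change was 0.12 ± 0.05 (SE, adjusted p = 0.519 by edgeR). Its genotypes did not overlap, as for 14.2% of genes that passed the CPM filter. The NF-Y subunits *Nfyb* and *Nfyc* had log2 fold changes of -0.02 ± 0.05 and 0.07 ± 0.07 (SE).

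Among the other class II chains and chaperones, *H2-DMb1*, the beta chain of H2-DM, was the only gene of 6 with enough counts for a test, and it was not called (log2 fold change 0.16 ± 0.32, adjusted p = 0.923 by edgeR). *H2-DMb2*, *H2-Oa*, *H2-Ob* and *H2-Eb2* had 1 to 12 counts per library. The X-Y arrangement shown above for *H2-Oa*, *H2-Ob* and *H2-Eb2* thus belonged to genes at the edge of detection, and that of *H2-Aa* and *H2-Eb1* to genes at 25 to 63 counts.

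Genes of peptide processing and class II turnover were 8 of 8 tested and none was called. Their median log2 fold change was -0.02. The lysosomal proteases *Ctsb* and *Ctsd* had log2 fold changes of -0.05 ± 0.05 and -0.07 ± 0.06 (SE). *Sppl2a*, the intramembrane protease that clears the last invariant chain fragment, had one of 0.09 ± 0.05 (SE). The co-stimulatory ligands of T cells *Cd80* and *Cd86* were at 2.20 ± 0.45 and 1.57 ± 0.05 CPM in *Adar1* E861A, against 1.84 ± 0.06 and 1.24 ± 0.30 CPM in *Adar1*+/+ (SD, n = 3). Neither was called (adjusted p of 0.776 and 0.721 by edgeR).

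**Figure D2:**
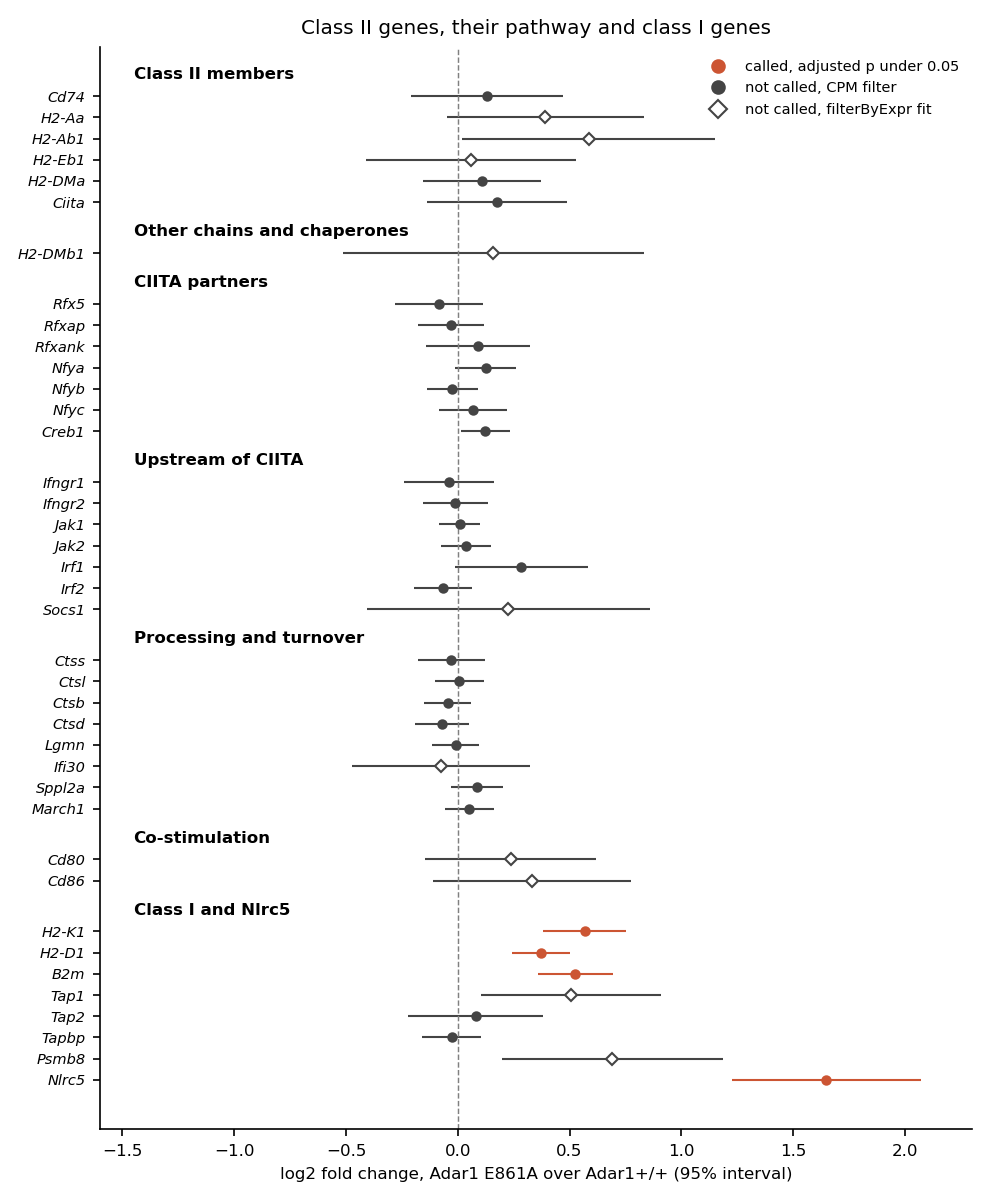
Log2 fold change of *Adar1* E861A over *Adar1*+/+ (horizontal axis, bars for the 95% interval) for the 6 class II genes and genes of their pathway, grouped by role, with class I genes last. Red marks called genes, filled circles the fit with the CPM filter and open diamonds the fit with filterByExpr. The 6 class II genes lie from 0.06 to 0.58 and none is called, and the 4 called genes shown are *H2-K1*, *H2-D1*, *B2m* and *Nlrc5*.

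MHC class I genes, which share the peptide-presenting design but sample the cytosol, served as the comparison. Of 8 tested genes of the class I list, 4 were higher in *Adar1* E861A brain and 0 lower, and the median log2 fold change of the list was 0.52. The higher genes were the heavy chains *H2-K1* (0.57 ± 0.09, adjusted p = 0.00462) and *H2-D1* (0.37 ± 0.06, adjusted p = 0.00854), the light chain *B2m* (0.53 ± 0.08, adjusted p = 0.00357) and *Nlrc5* (1.65 ± 0.20, adjusted p = 0.000487), all by edgeR with SE. *Nlrc5* encodes the CIITA-related activator of class I promoters, and rose from 0.707 ± 0.188 to 2.23 ± 0.081 CPM (SD, n = 3). *Tapbp*, *Tap2* and *Tap1*, of the peptide loading complex, had log2 fold changes of -0.03, 0.08 and 0.51 and were not called. Without *Adar1* E861A replicate 3, *H2-K1*, *H2-D1* and *B2m* were no longer called, and without *Adar1*+/+ replicate 3, *H2-D1* was not. Class I heavy chains are similar in sequence, so reads could have been divided between them.

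Class I and class II levels were also set against each other within libraries, for 3 pairs of genes chosen after their values were seen. The log2 ratio of *Nlrc5* to *Ciita* was -1.83, -1.18 and -1.37 in *Adar1* E861A replicates and -2.85, -2.75 and -3.35 in *Adar1*+/+ replicates. The ratio was thus higher in each *Adar1* E861A library than in each *Adar1*+/+ library, by 1.52 in the mean (exact permutation p = 0.1, the smallest possible, and 0.3 after adjustment over the 3 pairs). For *B2m* over *Cd74* the difference of mean log2 ratios was 0.38 (exact permutation p = 0.2) with overlap. For *H2-K1* over *H2-Aa* it was 0.15 (exact permutation p = 0.5), with overlap. A difference in response between *H2-K1* and *H2-Aa* was therefore not shown, although the first was called and the second was not.

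The class II genes other than *Cd74* and *Ciita* lie close together in the MHC, among class I processing genes. In the interval from 200 kb before *H2-DMa* to 200 kb after *H2-Eb1* (NCBIM37 chromosome 17, 34072127 to 34653144) 52 genes are annotated, of which 22 could be tested. The class I gene *H2-K1* was called higher, and no gene was called lower. The immunoproteasome subunit *Psmb8*, which lies between *H2-DMa* and *H2-Ab1*, had a log2 fold change of 0.69 ± 0.23 (SE, adjusted p = 0.378 by edgeR) and was singled out after its values were seen.

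**Figure D3:**
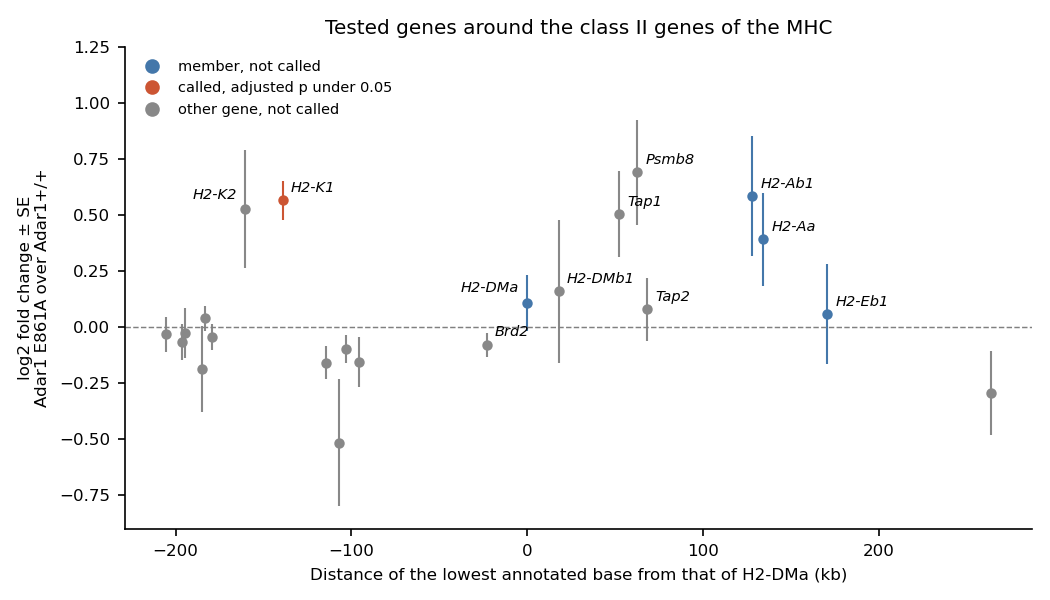
Log2 fold change ± SE of the 22 tested genes of the interval (vertical axis) against the distance of their lowest annotated base from that of *H2-DMa* in kb (horizontal axis). Blue marks the class II genes, red the called gene *H2-K1* and grey the other genes. *H2-Ab1* and *H2-Aa* sit at 0.58 and 0.39, and *H2-DMa* and *H2-Eb1* near 0.

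Markers of cell types that could carry class II were summed per library. Microglial markers, among them *Csf1r*, were at 153 to 170 CPM in *Adar1* E861A and 165 to 174 CPM in *Adar1*+/+, with 8 of 8 tested and none called. Markers of border and perivascular macrophages, among them *Mrc1*, were at 16.5 to 19.6 against 14.8 to 18.7 CPM, and those of dendritic cells, among them *Zbtb46*, at 39.1 to 46.4 against 41.9 to 44.5 CPM. For these 3 lists the genotypes overlapped. The dendritic cell sum was mostly *Zbtb46* and *Flt3*, with means of 23.6 and 17.4 CPM over all libraries. Of the 8 dendritic cell markers, 4 had enough counts for a test. *Zbtb46* is also expressed by endothelium, and the dendritic cell marker *Ccr7* had at most 3 counts in any library.

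B cell markers summed to 16.95 to 19.8 CPM in *Adar1* E861A and 12.1 to 15.0 CPM in *Adar1*+/+ without overlap. Such separation was seen in 14.2% of single genes that passed the CPM filter. Most of that sum was *Ighm*, at 12.3 ± 1.73 against 9.32 ± 0.936 CPM (SD, n = 3), which was not called (log2 fold change 0.40 ± 0.11, adjusted p = 0.230 by edgeR), and the defining marker *Ms4a1* had 0 to 5 counts. T and NK cell markers were at 4.59 to 4.88 against 3.91 to 4.67 CPM, mostly *Cd4*, with *Cd3g* and *Nkg7* at most at 3 counts. The monocyte and neutrophil list reached 8.91 CPM in *Adar1* E861A replicate 3, through *S100a8* and *S100a9*, and was 1.31 to 3.02 CPM in the other 5 libraries. In that library *Cd74* was at its highest and the other class II genes were not, and a link between these values was not tested.

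Tissue at the border of the brain also differed between libraries. Choroid plexus markers summed to 216 to 333 CPM in *Adar1* E861A and 393 to 405 CPM in *Adar1*+/+, mostly *Ttr* (log2 fold change -0.51 ± 0.12, adjusted p = 0.124 by edgeR). Without *Adar1* E861A replicate 1, *Ttr* was called, at -0.33 (adjusted p = 0.00458 by edgeR), and without replicate 2 of that genotype at -0.60 (adjusted p = 0.0362 by edgeR). Endothelial markers summed to 56.6 to 75.7 against 80.5 to 92.3 CPM, mostly *Flt1* (-0.37 ± 0.08, adjusted p = 0.0817 by edgeR). *Flt1* was called without *Adar1* E861A replicate 2 (-0.48, adjusted p = 0.00252 by edgeR) and without *Adar1*+/+ replicate 2 (-0.42, adjusted p = 0.0186 by edgeR). On all 6 libraries *Flt1* was called by DESeq2 (adjusted p = 0.00225), the likelihood ratio test (adjusted p = 0.00336) and edgeR's quasi-likelihood test with filterByExpr (adjusted p = 0.0445). Neuronal markers, mostly *Snap25*, were at 3693 to 3786 against 3805 to 3839 CPM. These 3 lists did not overlap and were lower in *Adar1* E861A. Single genes that passed the CPM filter separated in 14.2% of cases, and no such share was computed for sums of markers. Blood markers, mostly *Hbb-bs*, overlapped at 108 to 130 against 114 to 230 CPM. In all, 56 marker genes were tested by the quasi-likelihood test on all 6 libraries, with filterByExpr used only for genes below the CPM filter. None was called. With replicate number as a block 4 were called, *Gh*, *S100a8*, *S100a9* and *Ttr*. The part of these cell types and of the dissection in the class II values was not tested.

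**Figure D4:**
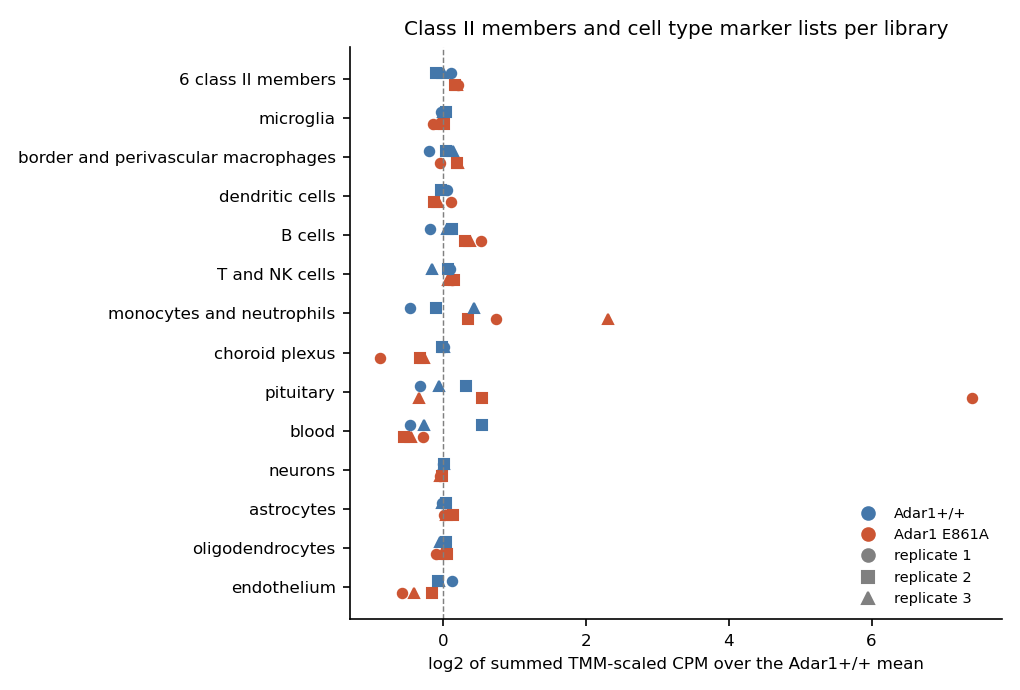
Log2 of the summed TMM-scaled CPM of the 6 class II genes and of each cell type marker list over its *Adar1*+/+ mean (horizontal axis), with a point per library, colour for genotype and shape for replicate number. The pituitary list stands apart in *Adar1* E861A replicate 1 (431 CPM) and the monocyte and neutrophil list in replicate 3 (8.91 CPM), while the class II sums lie between 13.3 and 16.4 CPM in all 6 libraries.

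Over the 6 libraries, the genes whose log2(CPM + 0.5) was most like the mean z-score of the 6 class II genes were *9330182L06Rik*, *Rsf1os1*, *Gpx7*, *Gm12250* and *Gbp2b*, with Pearson r of 0.986, 0.985, 0.980, 0.978 and 0.976. The comparison ran over 19360 genes, of which 123 had an r over 0.9, and so few libraries leave room for many such matches. None of the 5 genes was called. *Gbp2b* encodes an interferon-inducible guanylate-binding protein and had a log2 fold change of 0.80 with an adjusted p of 0.0758 by edgeR.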

How the data were processed

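Ribosome-depleted RNA of whole brain was sequenced by the authors from a stranded library kit (75 bp paired-end reads, 9 PCR cycles). Per the labels and the study's methods, reads were trimmed with Trimmomatic 0.36 and aligned with STAR 2.5.2a to NCBIM37 (mm9), and the authors deposited raw counts per gene, 1 column per library. The strand column of the gene counts was not stated, so values of overlapping and antisense genes are uncertain. The authors also deposited CPM values of 13891 genes, which matched the counts and were used only for that check, and a table of their own edgeR comparison (log2 fold changes, mean log2 CPM and FDR, an adjusted p-value), which was not used.

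Coordinates are those of GENCODE vM1 on NCBIM37. Promoter sequences come from RefSeq on GRCm38.p6 and were used for sequence only. Counts were tested in R 4.3.3 with edgeR 4.0.16 (TMM, glmQLFit and glmQLFTest, no covariates). Genes needed 2 CPM or more in all 3 libraries of one genotype or the other, and values of listed genes below this come from a second fit, on the genes kept by filterByExpr. The SE is the absolute log2 fold change divided by the square root of F. The fits were tested on simulated data. Permutation tests between genotypes were exact over the 20 splits of 6 libraries, and those of correlations over all orderings of the 6 libraries. Intervals and p-values of the fits rest on the spread between 3 animals per genotype, moderated by the spread of other genes. The median total degrees of freedom were 13.7 with the CPM filter and 16.6 with filterByExpr. No molecular identifiers were used.

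The 6 genes, the pathway lists and the marker lists were chosen with earlier results of these data known. All 6 genes are named in full, as are called genes of the lists, up to 3 uncalled genes per role with the highest mean CPM, the most abundant gene of each marker list, and the 5 genes closest to the class II profile. Some listed genes are not reported here. Deviations of same-numbered libraries from their genotype means correlated across genes (r of 0.227, 0.338 and 0.117), so fits with replicate number as a block are given beside those without it. The labels do not say what a number shares, and the values printed are unpaired unless the block is named. Alternatives were median-ratio, upper-quartile and no scaling factors, other filters, the likelihood ratio test, DESeq2 1.42.0, limma-voom (limma 3.58.1), robust fitting, thinning to the lowest library total, replicate number as a block, and omission of each library.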

Additional observations from a re-analysis of the deposited data

How the results depend on the processing

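None of the 6 class II genes was called under any of 18 alternatives. The log2 fold changes of *Cd74*, *H2-Aa*, *H2-Ab1* and *H2-DMa* stayed above 0 under all 18, from 0.017 to 0.27, 0.28 to 0.57, 0.37 to 0.73 and 0.031 to 0.18. That of *H2-Eb1* ran from -0.10 (without *Adar1* E861A replicate 2) to 0.24 with single libraries left out, and that of *Ciita* from -0.00027 (without *Adar1* E861A replicate 1) to 0.31. With replicate number as a block, the log2 fold changes of *Cd74*, *H2-Ab1* and *Ciita* had adjusted p of 0.661, 0.335 and 0.454 by edgeR, and the block changed no call among the class II and pathway genes. Over the alternatives the lowest adjusted p of a class II gene was 0.335, for *H2-Ab1*. Pathway genes called, 5 in all, ranged from 2 to 5 when a library was left out, with *Nlrc5* remaining in each case.

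The count of all genes called was 69. It was 110 of 19366 with filterByExpr, 139 by the likelihood ratio test and 158 with replicate number as a block. Without a filter it was 376 of 29282. That fit had a median of 117128 total degrees of freedom, against 13.7 with the CPM filter, so its p-values took little account of each gene's own spread. With single libraries left out the count was 42 to 113 (42 without *Adar1* E861A replicate 3, 113 without replicate 2 and 108 without *Adar1*+/+ replicate 2). Marker genes called, 0 of 56 in the results above, were 1 with filterByExpr, 5 by the likelihood ratio test, 1 by DESeq2 and 4 with the block. The gene called with filterByExpr and by DESeq2 was *Flt1*. Without a filter 16 of 73 were called, among them *Gh* and *Prl*, counted mostly in *Adar1* E861A replicate 1. With single libraries left out 0 to 7 were called. The cause of these differences was not tested. With 17 to 231 counts per class II gene and library, counting error is part of every fold change, most of all for *H2-Ab1*.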
